A study of Mus musculus with 14 samples.

Results

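The 8 genes described here encode the central complement component C3, the alternative pathway proteins factor B (Cfb) and properdin (Cfp), the receptors C3ar1, C5ar1 and Vsig4, and the membrane regulators Cd55 and Cd59a. They and the gene lists below were chosen by name, with earlier results of these data known. All 8 members were found in the deposited table of 54955 gene symbols or IDs, and each symbol had 1 row. The RNA came from fat of 14 mice of the C57BL/6 strain, taken in postnatal week 21: 7 carry the label KO-Dectin1 (KO, replicates 1 to 7) and 7 the label WT (wild type, replicates 3 to 9). Dectin-1, encoded by Clec7a, is the β-glucan receptor of myeloid cells. The labels name no allele, sex or fat depot and state no treatment, and nothing in them says whether animals shared a litter or cage, so p-values measure the spread between these libraries. Values are in TPM, a share of transcripts per gene length, so levels of different genes can be set side by side, but the number of reads behind a value is unknown.

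Complement is a cascade of plasma proteins whose central step is the cleavage of C3 into the anaphylatoxin C3a and the surface tag C3b. In the alternative pathway C3b binds factor B, the protease factor D (adipsin, made in large amounts by adipocytes) cuts the bound factor B, and properdin stabilises the resulting C3 convertase. C3ar1 and C5ar1 are the receptors for C3a and C5a, Vsig4 is a C3b and iC3b receptor of resident macrophages in mice, Cd55 speeds the decay of convertases, and Cd59a blocks assembly of the membrane attack complex.

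A few facts of the libraries touch the results. Clec7a was read in each KO-labelled library, at 4.02 to 10.5 TPM, against 4.1 to 18.9 TPM in WT libraries, so the targeted gene did not separate the groups, and each direction below rests on the labels alone. Cd79a, a B-cell receptor subunit, stood at 1.52 TPM in KO replicate 7, 0.62 TPM in WT replicate 4 and 1.31 TPM in WT replicate 7, and at 177 TPM or more in the other 11 libraries. The adipocyte marker list summed to 9653 to 48900 TPM in KO-labelled and 21725 to 43340 TPM in WT libraries, so each library held the defining markers of the labelled tissue. Markers of muscle and liver varied widely, with skeletal muscle genes summing to 26.2 to 8901 TPM in KO-labelled and 42.7 to 27212 TPM in WT libraries, and hepatocyte genes to 35.8 to 2378 TPM in KO-labelled and 18.7 to 5465 TPM in WT libraries. In bulk tissue, fewer cells of a type and less RNA per cell cannot be told apart.

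The promoter window of C3 is printed because C3 is the most abundant of the 8 genes. Those of the 2 anaphylatoxin receptors are printed because they varied with each other and with C3 by Spearman's rho over 11 libraries. By Pearson's r no pair of members passed after adjustment. RefSeq windows (GRCm38.p6) matched 7 of the 8 members by symbol, all except Cfb, and the 250 bases before the start are given 5′ to 3′ on the gene's strand. Capitals mark matches on either strand to an NF-kB type motif, GGG and CC with any 5 bases between, a C/EBP type motif, TTNNGNAA, a STAT type motif, TTCNNNGAA, or a PU.1 type motif, GAGGAA. The windows lie at chr17:57228137-57228386 for C3, chr6:122856158-122856407 for C3ar1 and chr7:16259339-16259588 for C5ar1, each on the minus strand.
C3: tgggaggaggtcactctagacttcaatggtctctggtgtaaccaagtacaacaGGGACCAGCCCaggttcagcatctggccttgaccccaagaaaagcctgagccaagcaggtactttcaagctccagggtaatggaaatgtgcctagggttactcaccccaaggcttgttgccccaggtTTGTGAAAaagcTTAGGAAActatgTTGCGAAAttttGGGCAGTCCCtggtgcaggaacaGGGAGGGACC
C3ar1: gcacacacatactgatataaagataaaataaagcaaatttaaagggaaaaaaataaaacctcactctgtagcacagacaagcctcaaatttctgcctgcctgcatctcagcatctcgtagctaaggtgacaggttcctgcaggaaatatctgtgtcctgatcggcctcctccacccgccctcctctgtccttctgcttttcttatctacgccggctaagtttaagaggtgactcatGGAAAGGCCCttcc
C5ar1: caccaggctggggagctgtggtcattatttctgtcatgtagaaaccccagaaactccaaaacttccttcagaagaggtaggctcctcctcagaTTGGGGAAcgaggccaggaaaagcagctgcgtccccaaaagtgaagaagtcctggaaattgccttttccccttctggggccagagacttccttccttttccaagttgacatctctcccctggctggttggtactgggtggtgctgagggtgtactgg
The C3 window holds 3 stretches of the NF-kB type and 3 of the C/EBP type, with all of the C/EBP type within the last 70 bases before the start. In the first stretch of the NF-kB type matches on opposite strands overlap. The second stretch matches on both strands, as does the C/EBP type match nearest the start. The C3ar1 window holds 1 NF-kB type match and the C5ar1 window 1 C/EBP type match. Of 32851 windows of the same length, 45.8% hold the NF-kB type letters, 36.8% the C/EBP type, 7.02% the STAT type and 23.3% the PU.1 type, so a single match is common, and a match is only a description of the letters.

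Between KO-labelled and WT adipose tissue, 7 of the 8 members had lower values in the KO-labelled libraries, and Cd55 had a higher one. None passed the test across all genes. The median log2 fold change of the 8 members was -0.45, beside 0.04 over the 14719 genes tested, of which 45.4% had a value below 0. Each fold change is the KO mean minus the WT mean of log2(TPM + 1), tested with limma-trend and adjusted over the 14719 genes by Benjamini-Hochberg, with an adjusted p under 0.05 as the threshold. Of the 8 members 7 were tested, since Vsig4 was under the low-value filter of 1 TPM in at least 7 libraries, and 0 of the 7 were called, where 0.0204% of all genes were. At an unadjusted p under 0.05, 3 of the 7 were lower (C3, Cfb and C3ar1) and 0 higher, beside 6.74% of all genes lower. Groups did not overlap for 1 member, Cfb, beside 0.211% of all genes that lay lower without overlap. With library weights, which let libraries farther from their group's means count less, 4 of the 7 were called (C3, Cfb, C3ar1 and C5ar1, each lower). Beside them 5.59% of all genes were called in either direction and 3.91% called lower. WT replicate 8 had the highest weight (3.8). The weights of WT replicates 6, 4 and 7 and of KO replicate 7 were 0.263, 0.294, 0.479 and 0.311.

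**Figure D1:**
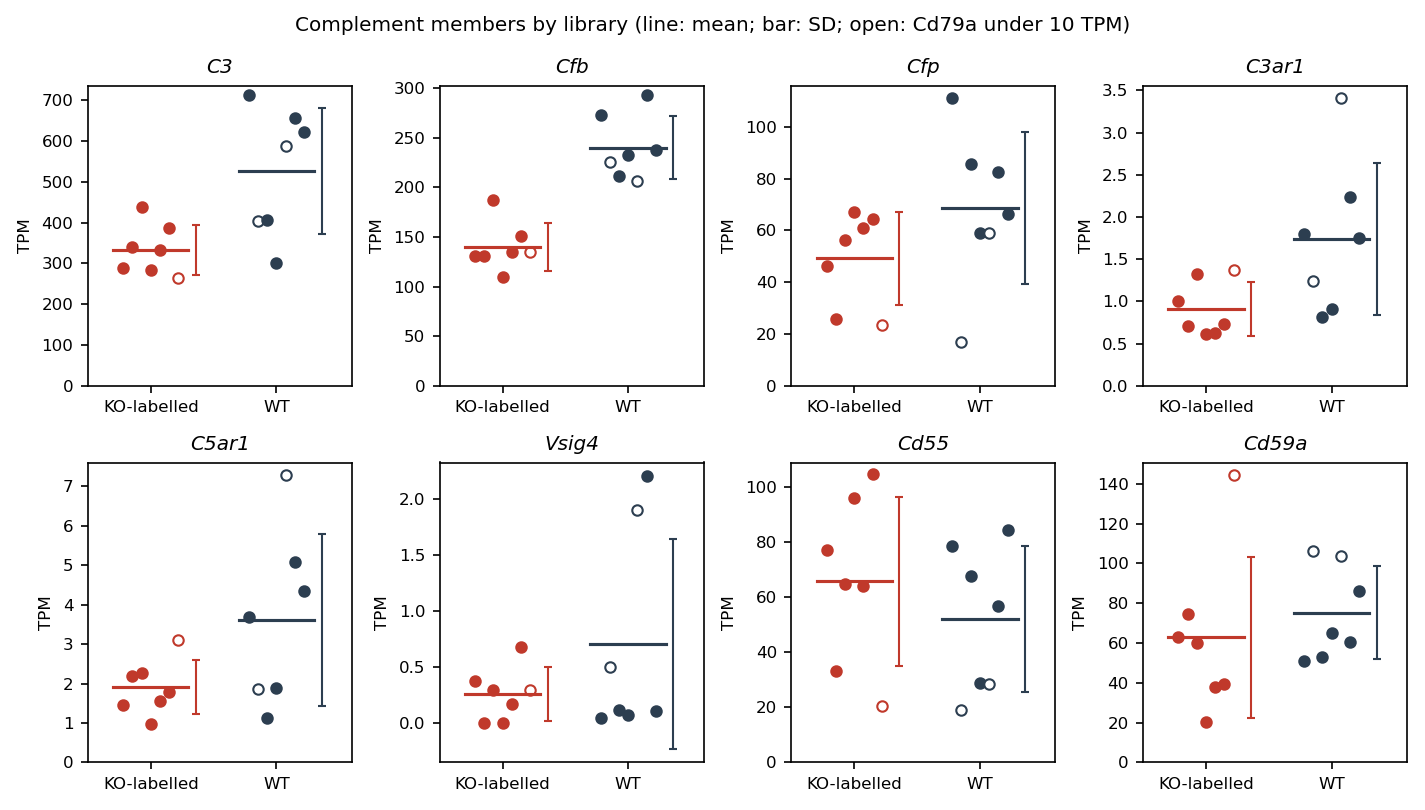
TPM of the 8 members in each library, with KO-labelled libraries in red left of WT libraries in dark blue, the horizontal line at the group mean and the bar spanning 1 SD either side (n = 7 each); open circles are the 3 libraries with Cd79a under 10 TPM. The KO-labelled libraries of Cfb lie at 110.04 to 187 TPM, all below the WT libraries at 207 to 293 TPM, while the groups overlap for the other members.

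C3 was the most abundant member in every library. It stood at 288, 339, 438, 284, 332, 386 and 263 TPM in KO replicates 1 to 7, against 712, 404, 407, 302, 588, 655 and 621 TPM in WT replicates 3 to 9. The 4 highest values were those of WT replicates 3, 7, 8 and 9, and WT replicates 4, 5 and 6 lay within the range of the KO-labelled libraries. The means were 333 ± 62 TPM in KO-labelled and 527 ± 155 TPM in WT libraries (SD, n = 7 each), and the log2 fold change was -0.62 ± 0.20 (SE; 95% interval -1.05 to -0.20; limma adjusted p = 0.28).

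Cfb encodes factor B, which supplies the protease subunit of the alternative pathway convertase. Its values were 131, 131, 187, 110.04, 135, 151 and 135 TPM in KO replicates 1 to 7, against 273, 226, 212, 232, 207, 293 and 238 TPM in WT replicates 3 to 9. Every KO-labelled library lay below every WT library, with KO replicate 3 and WT replicate 7 nearest to each other. The means were 140 ± 24 TPM in KO-labelled and 240 ± 32 TPM in WT libraries (SD, n = 7 each). The log2 fold change was -0.78 ± 0.13 (SE; 95% interval -1.05 to -0.51), the fourth smallest p of all genes tested, with a limma adjusted p of 0.069. That adjusted p ranged from 0.0046 to 0.51 over 26 alternatives and was under the threshold in 5 of them, those with library weights (0.0046), median-ratio scaling (0.028), quantile normalization (0.038) and TPM rescaled without mitochondrial genes (0.044), and that without KO replicate 3 (0.020). Over the 11 libraries with Cd79a at 10 TPM or more the log2 fold change was -0.83 ± 0.16 (SE; limma adjusted p = 0.15).

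The proportion of C3 to Cfb varied less among KO-labelled than among WT libraries, a difference in spread that was not tested. C3 was 1.96 to 2.59 times Cfb in TPM in KO-labelled libraries, against 1.30 to 2.84 times in WT libraries, where WT replicate 6 was lowest and WT replicate 7 highest. On the log2 scale Cfb relative to C3 was -1.24 ± 0.15 in KO-labelled and -1.08 ± 0.40 in WT libraries (SD, n = 7 each), a difference of -0.16 (2-sided exact permutation p = 0.37). With 1 library left out, that difference lay between -0.23 (WT replicate 7 left out) and -0.04 (WT replicate 6 left out). Together the 2 genes made up 67.3% to 77.5% of the summed TPM of the 8 members in KO-labelled libraries and 74.8% to 81.9% in WT libraries.

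Cfp encodes properdin, the only known positive regulator of the pathway and a product mainly of myeloid cells. Its values were 46.4, 25.7, 56.3, 67.1, 60.9, 64.6 and 23.6 TPM in KO replicates 1 to 7, against 111, 16.9, 85.6, 58.9, 59.02, 82.7 and 66.4 TPM in WT replicates 3 to 9. KO replicates 2 and 7 and WT replicate 4 were lowest, and 3 WT libraries lay above the highest KO-labelled one. The log2 fold change was -0.40 ± 0.37 (SE; 95% interval -1.19 to 0.38; limma adjusted p = 0.67). With 1 library left out it lay between -0.70 (without WT replicate 4) and -0.25 (without KO replicate 7), and over the 10 libraries whose replicate numbers both groups share it was -0.14.

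Receptors were present at low levels. C5ar1 stood at 1.46, 2.18, 2.27, 0.98, 1.57, 1.78 and 3.11 TPM in KO replicates 1 to 7, against 3.68, 1.87, 1.12, 1.88, 7.29, 5.07 and 4.35 TPM in WT replicates 3 to 9. The 4 highest libraries were WT replicates 3, 7, 8 and 9, the same 4 that were highest for C3. C3ar1 stood at 1.01, 0.71, 1.32, 0.62, 0.63, 0.73 and 1.37 TPM in KO replicates 1 to 7, against 1.80, 1.24, 0.82, 0.91, 3.41, 2.24 and 1.75 TPM in WT replicates 3 to 9. Again WT replicates 3, 7, 8 and 9 lay above every KO-labelled library. The log2 fold changes were -0.56 ± 0.28 for C5ar1 (SE; 95% interval -1.16 to 0.05; limma adjusted p = 0.46) and -0.47 ± 0.20 for C3ar1 (SE; 95% interval -0.90 to -0.05; limma adjusted p = 0.41), and both understate the change of genes so near the pseudocount of 1. In TPM the mean of C5ar1 was 1.91 ± 0.69 in KO-labelled and 3.61 ± 2.18 in WT libraries, and that of C3ar1 0.91 ± 0.32 in KO-labelled and 1.74 ± 0.90 in WT libraries (SD, n = 7 each).

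Vsig4 was near the limit of the 2 decimals deposited. It was listed at 0.38, 0, 0.30, 0, 0.17, 0.68 and 0.30 TPM in KO replicates 1 to 7, against 0.05, 0.50, 0.12, 0.07, 1.90, 2.20 and 0.11 TPM in WT replicates 3 to 9. WT replicates 7 and 8 stood apart from the other 12 libraries, and the other WT libraries lay within the range of the KO-labelled ones. WT replicate 8 had the highest sum of hepatocyte markers (5465 TPM, with KO replicate 6 next at 2378 TPM). WT replicate 7 had the highest sum of resident macrophage markers (344 TPM). WT replicates 3 and 9 came next (330 and 309 TPM), with Vsig4 at 0.05 and 0.11 TPM. The part of hepatocytes or resident macrophages in the Vsig4 values was not tested.

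Among the regulators, Cd55, the decay-accelerating factor, was the 1 member with a higher mean in KO-labelled libraries. It stood at 77.1, 33.1, 64.8, 95.8, 64.1, 104.5 and 20.6 TPM in KO replicates 1 to 7, against 78.4, 19.0, 67.5, 29.0, 28.6, 56.9 and 84.5 TPM in WT replicates 3 to 9. The lowest value was that of a WT library and the highest that of a KO-labelled one, with broad overlap. The log2 fold change was 0.34 ± 0.41 (SE; 95% interval -0.53 to 1.22; limma adjusted p = 0.73). With 1 library left out it lay between 0.14 (without WT replicate 4) and 0.58 (without KO replicate 7). Its paralog Cd55b, with which reads could be shared, was at 0.22 TPM or less in each KO-labelled and 0.13 TPM or less in each WT library.

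Cd59a, the inhibitor of the membrane attack complex, stood at 62.8, 74.6, 59.99, 20.4, 37.8, 39.6 and 144 TPM in KO replicates 1 to 7, against 51.05, 106, 52.9, 65.3, 104, 60.6 and 86.2 TPM in WT replicates 3 to 9. The 3 libraries with few B-cell transcripts held its 3 highest values and also the 3 lowest values of Cd55. For Cd59a the log2 fold change was -0.42 ± 0.34 (SE; 95% interval -1.15 to 0.30; limma adjusted p = 0.64), and with 1 library left out it lay between -0.66 (without KO replicate 7) and -0.20 (without KO replicate 4). Its paralog Cd59b, whose reads may be split with it by the counting, stood at 15.9 ± 8.1 TPM in KO-labelled and 16.1 ± 4.3 TPM in WT libraries (SD, n = 7 each) and was likewise highest in KO replicate 7, at 31.4 TPM.

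In order of mean TPM over all 14 libraries the members ran C3 (430), Cfb (190.1), Cd59a (69.0), Cfp (58.93), Cd55 (58.85), C5ar1 (2.76), C3ar1 (1.33) and Vsig4 (0.48). C3 exceeded Cfb in each of the 14 libraries, and Cfb exceeded Cd59a in each of them except KO replicate 7. Cd59a, Cfp and Cd55 had no fixed order, with Cd59a above Cfp in 4 of 7 libraries of each group and Cfp above Cd55 in 1 KO-labelled library and in 5 WT libraries. C5ar1 exceeded C3ar1, and C3ar1 exceeded Vsig4, in each of the 14 libraries.

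Relative to a marker list the spread of Cd59a, Cd55, Cfp and C5ar1 across libraries fell. That of C3ar1 hardly fell, and that of the other members did not. To describe this, the within-group SD of a member on the log2(TPM + 1) scale was set beside the SD of the member minus the mean of a 12-gene marker list in the same library. For Cd59a the SD was 0.69 alone and 0.19 relative to adipocyte markers, against 1.39 relative to macrophage markers. For Cd55 it was 0.83 alone and 0.29 relative to macrophage markers, against 1.36 relative to adipocyte markers, and for Cfp 0.75 alone, 0.36 relative to macrophage markers and 1.27 relative to adipocyte markers. C5ar1 showed its smallest spread relative to adipose progenitor and fibroblast markers, at 0.28 against 0.55 alone and 1.02 relative to macrophage markers. C3ar1 had 0.33 relative to progenitor markers, close to its own 0.36, and 0.93 relative to macrophage markers. The progenitor list itself had an SD of 0.63, above that of C3ar1. A member that varies less than a list can follow it without a clear fall in SD. How far C3ar1, C3, Cfb and Vsig4 followed a list is therefore not settled by this measure. None of the 3 lists steadied C3, Cfb or Vsig4: C3 had an SD of 0.37 alone and 0.52 or more relative to each of the 3 lists, Cfb 0.21 alone and 0.60 or more, and Vsig4 0.53 alone and 0.61 or more. The macrophage list itself followed the lymphoid content, as it summed to 422 TPM in KO replicate 7, 263 TPM in WT replicate 4 and 583 TPM in WT replicate 7, the lowest values of the 14 libraries, and what part lymphoid cells have in the levels of Cfp and Cd55 was not tested.

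**Figure D2:**
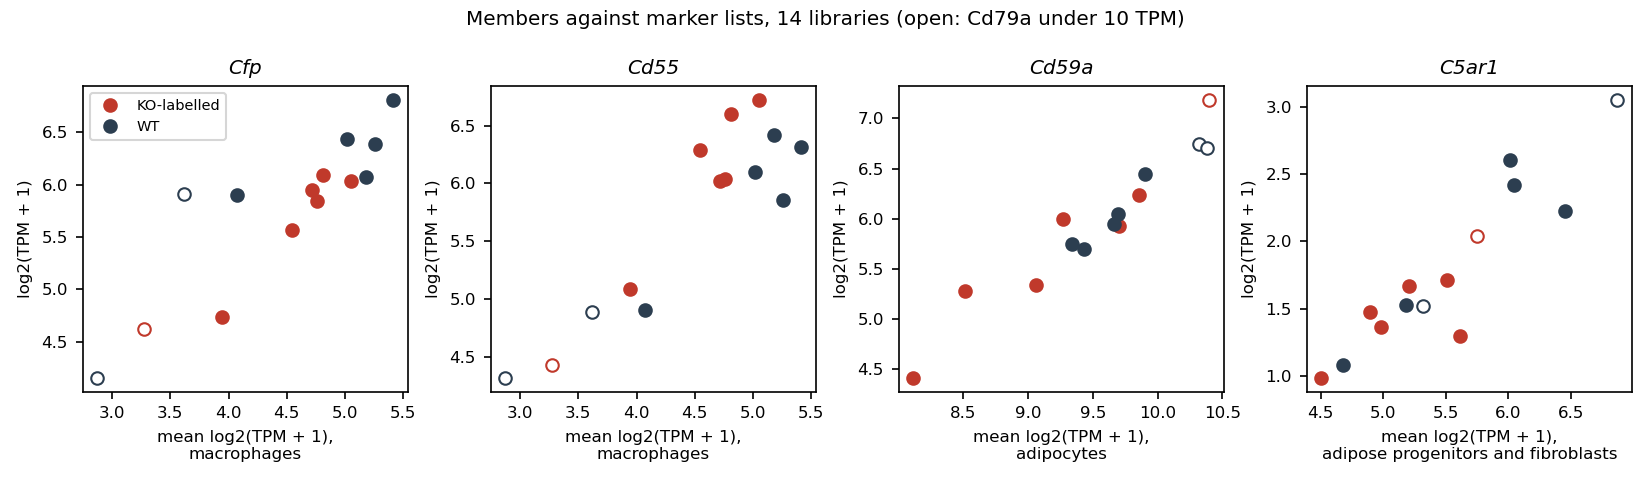
Level of 4 members (vertical axis, log2(TPM + 1)) against the mean log2(TPM + 1) of a marker list (horizontal axis) in 14 libraries, KO-labelled in red and WT in dark blue, with open circles for the 3 libraries with Cd79a under 10 TPM. Cfp and Cd55 are higher with the macrophage list, Cd59a with the adipocyte list and C5ar1 with the progenitor and fibroblast list.

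The marker lists also differed in sum between the groups, so each member was compared relative to 3 of them. Subtracting a list shifts the group difference of each member by the same amount, so these values do not measure the part of those cells. Adipocyte markers had lower values in KO-labelled libraries in 11 of 12 genes (median log2 fold change -0.56) and progenitor and fibroblast markers in 11 of 12 (median -0.53), while macrophage markers did in 7 of 12 (median -0.11). No gene of these 3 lists was called. Relative to adipocyte markers C3 differed by -0.08 and Cfb by -0.24 (2-sided exact permutation p = 0.85 and 0.49), and relative to progenitor markers by -0.04 and -0.20 (exact permutation p = 0.89 and 0.55). The 2 values of C3 have no stable sign: without KO replicate 7 they were 0.16 and 0.11. Relative to macrophage markers C3 differed by -0.58 and Cfb by -0.73 (exact permutation p = 0.16 and 0.093), C3ar1 by -0.43 and C5ar1 by -0.51 (exact permutation p = 0.39 and 0.36). Over the 11 libraries with Cd79a at 10 TPM or more these differences were -0.24, -0.48, -0.07 and -0.20. Relative to adipocyte markers C3ar1 differed by 0.07 and C5ar1 by -0.01 (exact permutation p = 0.80 and 0.97). Relative to progenitor markers they differed by 0.11 and 0.03 (exact permutation p = 0.54 and 0.82). Cfp relative to macrophage markers was 1.11 ± 0.19 in KO-labelled and 1.46 ± 0.47 in WT libraries (SD, n = 7 each; exact permutation p = 0.079), and Cd55 relative to them was 1.44 ± 0.28 in KO-labelled and 1.05 ± 0.29 in WT libraries (SD, n = 7 each; exact permutation p = 0.028). Cd59a relative to adipocyte markers was -3.50 ± 0.25 in KO-labelled and -3.63 ± 0.10 in WT libraries (SD, n = 7 each; exact permutation p = 0.23). Adjusted over the 24 tests of 8 members and 3 lists, 0 passed (smallest adjusted p = 0.67), and 1, that of Cd55, was under 0.05 unadjusted.

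**Figure D3:**
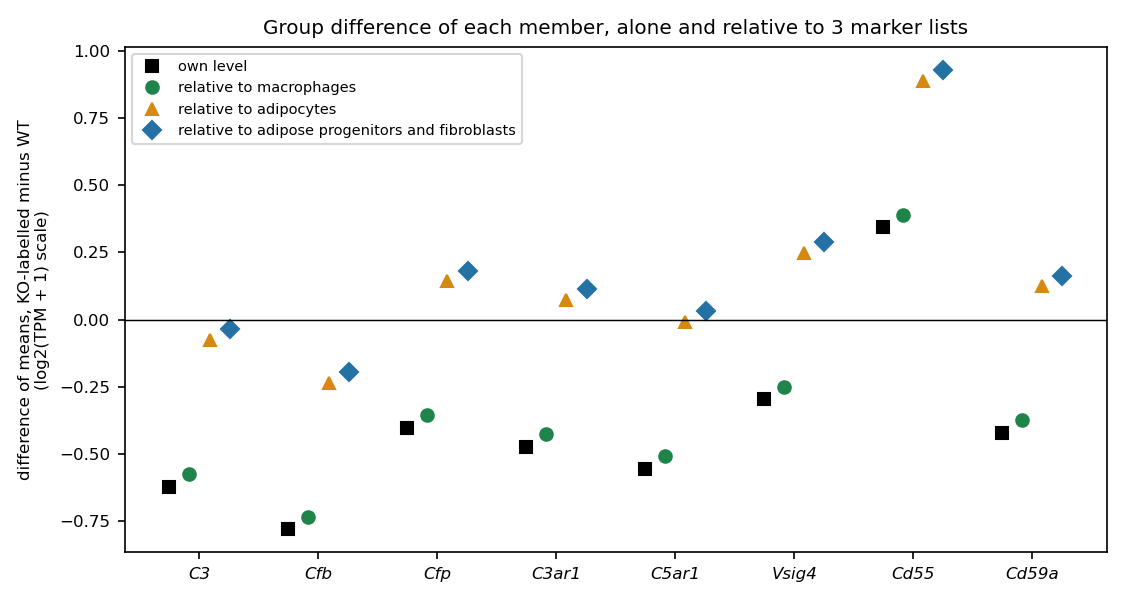
Difference of the group means, KO-labelled minus WT, on the log2(TPM + 1) scale for each member's own level (black squares) and for its level relative to the mean of the macrophage (green circles), adipocyte (orange triangles) and progenitor and fibroblast (blue diamonds) marker lists, n = 7 each. For C3 the own level lies at -0.62 and the values relative to adipocyte and progenitor markers at -0.08 and -0.04.

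Among themselves the members were compared over the 11 libraries with Cd79a at 10 TPM or more (6 KO-labelled, 5 WT), after subtracting each group's mean, since the other 3 stand apart. C3 and Cfb varied together (Pearson r = 0.70, permutation p = 0.0075, adjusted p = 0.053; Spearman rho = 0.89, permutation p = 0.00096, adjusted p = 0.018), with r = 0.87 without the 2 libraries farthest from the median of C3. C3ar1 and C5ar1 had r = 0.86 (permutation p = 0.0057, adjusted p = 0.053) and rho = 0.91 (permutation p = 0.0034, adjusted p = 0.018), with r = 0.82 (permutation p = 0.11) without the 2 libraries farthest from the median of C3ar1. C3 had r = 0.81 with C5ar1 and 0.80 with C3ar1 (permutation p = 0.023 and 0.019, adjusted p = 0.093 and 0.087), with rho = 0.90 for each and r = 0.88 and 0.78 without 2 libraries. Cfb had r = 0.75 with C3ar1 and 0.69 with C5ar1 (permutation p = 0.0057 and 0.0075, adjusted p = 0.053 for each), with rho = 0.85 and 0.82. Without 2 libraries r was 0.53 and 0.67 (permutation p = 0.14 and 0.043), so the relation with C3ar1 was weaker without them. Cfp and Cd59a ran opposite, with r = -0.73 (permutation p = 0.030, adjusted p = 0.11) and rho = -0.85 (permutation p = 0.0015, adjusted p = 0.018), and r = -0.75 without 2 libraries. Cfp and Cd55 had r = 0.77 (permutation p = 0.013, adjusted p = 0.073), with rho = 0.54 and r = 0.19 without the 2 libraries farthest from the median of Cfp, so that relation rests on those libraries. Of the 28 pairs, 0 passed after adjustment by Pearson's r and 7 by Spearman's rho.

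The genes most like each member by Pearson's r over the same 11 group-centred libraries, among the other tested genes with a mean of 5 TPM or more (9874 for C3ar1, C5ar1 and Vsig4, 9873 for the rest), are given as a description. Cfp was closest to Ifi30, a lysosomal thiol reductase of antigen-presenting cells (r = 0.98), Nfkb2 (0.98) and Il10ra (0.98), and Cd55 to Susd1 (0.99), the protease Adam17 (0.99) and Rasgrp3 (0.99). Cd59a was closest to Rhob (0.97), the adipocyte galectin Lgals12 (0.96) and Sult1a1 (0.96). C3 was closest to Wdr41, Ube3b and Tm9sf4 (0.96 to 0.97), and Cfb to Flywch1, Lrrc14 and Fbxw17 (0.91 to 0.95). C5ar1 was closest to Iqsec2 (0.92), Fndc1 (0.92) and the collagen cross-linking enzyme Loxl2 (0.91), and C3ar1 to Cers4 (0.96), Igfbp5 (0.95) and Niban2 (0.95). Vsig4 was closest to Cyp2d9, Ces3a and Slc38a3, genes known from mouse liver (0.97 to 0.98). In these 11 libraries Vsig4 stood at 2.20 TPM in WT replicate 8 and at 0.68 TPM or less in the others. Its r without that library was not computed. The sum of hepatocyte markers was highest in WT replicate 8, as was Vsig4, and its part in these values was not tested.

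The rest of the complement system was read from 6 lists of 52 genes, of which 30 were tested. None was called in either direction, 24 had lower and 6 higher values in KO-labelled libraries, and the median log2 fold change was -0.48, beside 0.04 over all genes. At an unadjusted p under 0.05, 10 were lower and 0 higher. Over all genes 45.4% had a value below 0 and 6.74% were lower at that unadjusted p. Factor D (Cfd), which cleaves C3b-bound factor B, stood at 16851 ± 7792 TPM in KO-labelled and 27542 ± 8471 TPM in WT libraries (SD, n = 7 each; log2 fold change -0.79 ± 0.32 (SE), limma adjusted p = 0.39). The C1 inhibitor Serping1 stood at 116 ± 26 TPM in KO-labelled and 217 ± 105 TPM in WT libraries (limma adjusted p = 0.35). Of 9 classical pathway genes tested 8 had lower values, all 8 at an unadjusted p under 0.05 (6.74% of all genes), with the log2 fold changes of C4b, C2 and C1ra at -1.40, -1.33 and -0.67, and C4a, a close copy of C4b, had a higher value. Other complement receptors did not share the direction of C3ar1 and C5ar1, with 1 of 5 lower over all 14 libraries. Over the 11 libraries with Cd79a at 10 TPM or more, compared with no test, 2 were lower and 3 higher (median difference 0.02). Over all 14 libraries Cr2, a complement receptor of B cells, stood at 31.8 ± 20.4 TPM in KO-labelled and 20.6 ± 17.7 TPM in WT libraries (limma adjusted p = 0.70). The membrane regulators Thbd, Cr1l and Cd59b had log2 fold changes of -0.65, -0.17 and -0.11, and in the terminal pathway C6, C7 and C8g had -0.80, -0.69 and -0.37. In the lectin pathway 3 of 4 tested genes had lower values, with Fcna at 6.46 ± 2.49 TPM in KO-labelled and 17.3 ± 16.98 TPM in WT libraries, Colec12 at -0.29 and Colec11 at 0.08 on the log2 scale.

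**Figure D4:**
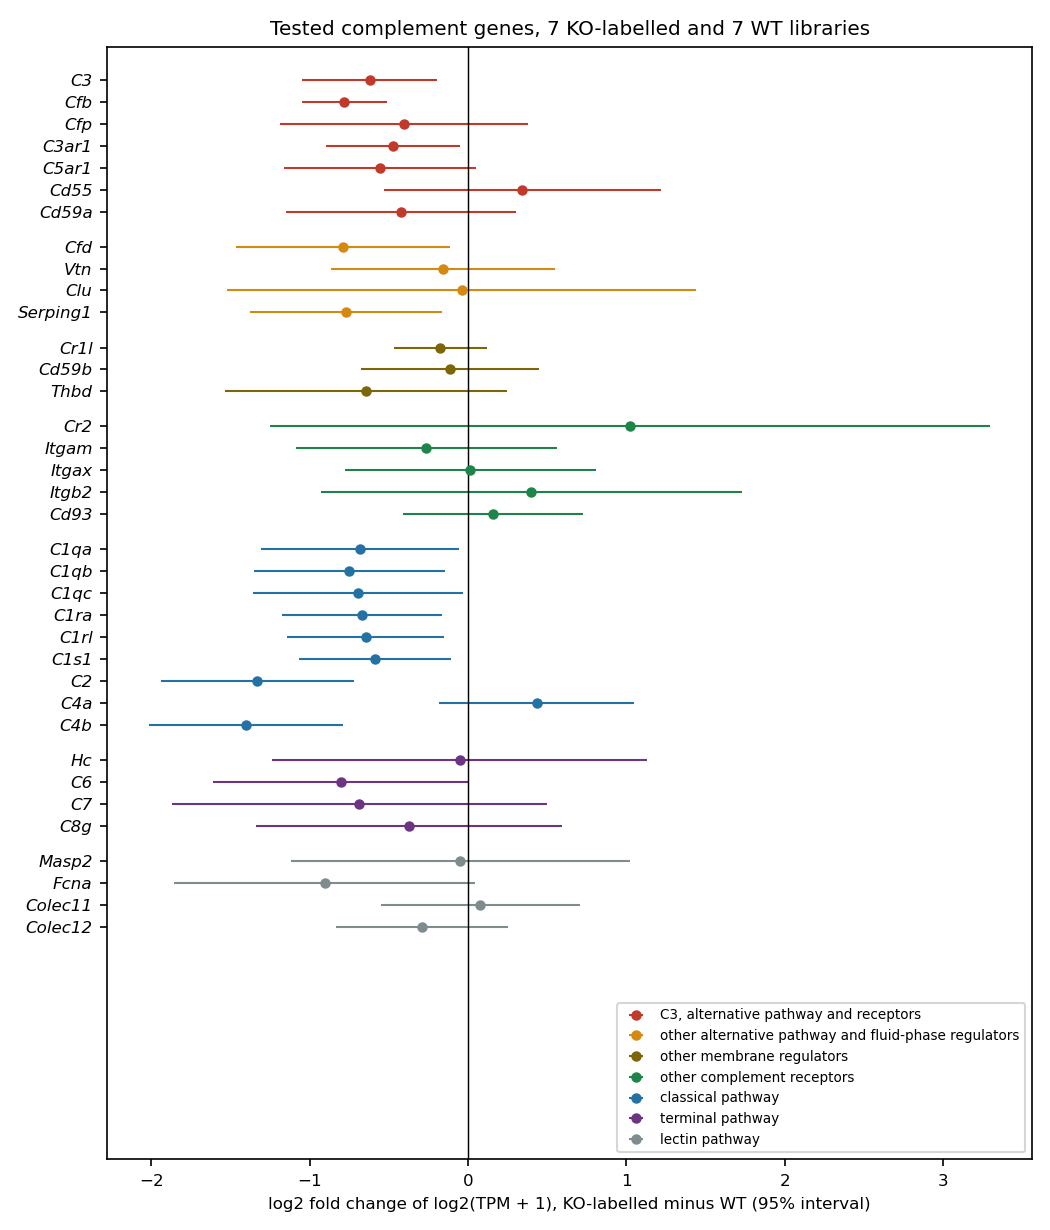
Log2 fold changes, KO-labelled minus WT on the log2(TPM + 1) scale, with 95% intervals from limma for the 7 tested members (top, red) and for tested genes of 6 other complement lists, n = 7 libraries each. The interval of Cfb runs from -1.05 to -0.51, and those of Cfp, C5ar1, Cd55 and Cd59a include 0.

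Known inducers of C3 and Cfb did not share one direction. Of the 4 cytokines tested, 3 had higher values in KO-labelled libraries, and Tnf stood at 5.06 ± 2.19 TPM in KO-labelled and 2.85 ± 1.87 TPM in WT libraries (SD, n = 7 each; limma adjusted p = 0.49), while Osm and Il1a had log2 fold changes of 0.45 and 0.09. The 9 transcription factors of the NF-kB, C/EBP, STAT and IRF families had a median log2 fold change of 0.01, with Cebpd at -0.30, Cebpb at -0.26 and Nfkb1 at 0.35. Among 10 acute phase genes 5 had lower values, and the haptoglobin gene Hp stood at 447 ± 257 TPM in KO-labelled and 1393 ± 551 TPM in WT libraries, with a log2 fold change of -1.80 ± 0.45 (SE; limma adjusted p = 0.21). Serpina3n and Orm1 had log2 fold changes of -1.08 and -0.66. None of these 23 genes was called. Over the 11 libraries with Cd79a at 10 TPM or more, compared with no test, 2 of the 4 cytokines had lower values (median difference 0.10). Of the 9 transcription factors 7 were then lower (median -0.08), against 4 over all 14 libraries.

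Markers of other cells that could carry these genes were read in the same fit, and none was called. Resident macrophage markers had lower values in 6 of 8 genes and summed to 121 to 203 TPM in KO-labelled and 151 to 344 TPM in WT libraries, with Cbr2, Folr2 and Lyve1 at log2 fold changes of -0.74, -0.97 and -0.76. General macrophage markers summed to 422 to 2023 TPM in KO-labelled and 263 to 2255 TPM in WT libraries. Their values were lower in 7 of 12 genes and higher in 5, with a median of -0.11, and the genes with the smallest p, Fcgr1 and Cd68, were at -0.78 and -0.64. Neutrophil and monocyte markers were lower in 4 of 9, with Ccr2 and Plac8 at 0.41 and -0.57. The adipocyte genes Cidec, Adipoq and Pnpla2 had -0.97, -0.96 and -0.76, and the progenitor genes Ly6a, Col3a1 and Clec3b -0.55, -0.87 and -0.77. B-cell and plasma cell markers were higher in 10 of 10 tested genes, with Blk and Mzb1 at 1.16 and 1.21, and T-cell markers in 10 of 10, with Cd3g, Lck and Trbc2 at 1.20, 1.20 and 1.30. Lymph node stroma markers were higher in 4 of 5, with Glycam1, Ccl21a and Ccl19 at 1.30, 1.23 and 0.52, and endothelial markers in 7 of 8, with Egfl7, Pecam1 and Kdr at 0.31, 0.30 and 0.21. Hepatocyte markers were higher on the log2 scale in 8 of 8, with Apoa2, Ttr and Ahsg at 0.88, 0.76 and 0.65. In TPM the means of Apoa2, Ttr and Ahsg were lower in KO-labelled libraries (161, 41.5 and 39.2) than in WT libraries (193, 52.9 and 51.8). WT replicate 8 held 5465 TPM of summed hepatocyte markers. Skeletal muscle markers were lower in 9 of 9, with Acta1, Tnni2 and Mylpf at -2.39, -1.77 and -1.65, and of the mesothelium list Krt8 was tested, at -0.10. The 3 libraries with Cd79a under 10 TPM set much of this. Over the other 11 libraries (6 KO-labelled, 5 WT), a comparison chosen after seeing the data and made with no test, the median difference was 0.31 for B-cell and plasma cell markers, against 1.20 over all 14 libraries, and 0.22 for T-cell markers, against 1.01 over all 14. B-cell and plasma cell markers then summed to a mean of 1591 TPM in KO-labelled and 1310 TPM in WT libraries, and T-cell markers to 1043 TPM in KO-labelled and 922 TPM in WT libraries. Lymph node stroma markers turned to a median of -0.14 and skeletal muscle markers to 0.16, each with the opposite sign over all 14 libraries. General macrophage markers were then lower in 11 of 12 genes (median -0.29) and neutrophil and monocyte markers in 7 of 9 (median -0.31), while adipocyte and progenitor markers stayed at medians of -0.53 and -0.57. What part any of these cells have in the levels of the 8 members was not tested, and the 3 lists above do not measure it.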

How the data were processed

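RNA from adipose tissue of 14 mice was measured in 7 libraries labelled KO and 7 labelled WT. The authors deposited 1 table of TPM values with 56552 rows, whose library columns each sum to nearly the same total, together with a length per gene (other columns are the authors' group means). Bowtie 0.12.2 and the builds mm9 and mm8 appear in the submitters' processing notes, which leave their roles open. How TPM was computed, on which annotation, with or without strand and with what treatment of shared reads is not given in the sources used here. TPM keeps no depth, so no counting interval is given, and it is a share, so a rise of one abundant class lowers the others. Because build and annotation are uncertain, coordinates are printed only for the RefSeq promoter windows (GRCm38.p6).

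Rows of one symbol were summed (54955 symbols or IDs). A gene needed 1 TPM in 7 libraries to be tested, which 14719 passed. They were compared on log2(TPM + 1) by limma-trend with a robust prior (limma 3.58.1, R 4.3.3), 2-sided, with Benjamini-Hochberg adjustment over these genes. The design's count model did not apply to TPM. Single values were tested by 2-sided exact permutation over 3432 arrangements of the labels (smallest p 0.000583), and correlations by 100000 permutations within groups (numpy 2.4.6, scipy 1.17.1 in Python 3.11.15). The scripts were tested on simulated data. The named genes were the 8 members, the up to 3 genes of smallest p of each of 21 other lists, the 3 genes most like each member, Clec7a and Cd79a. Cd55b and C4a were added after their values were seen. Some genes that the rule names are not reported here. Members and lists were chosen with earlier results of these data known. Alternatives were other pseudocounts, filters, scalings, unsummed rows, library weights, libraries left out and a replicate block.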

Additional observations from a re-analysis of the deposited data

How the results depend on the processing

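The signs of the log2 fold changes of the 8 members were the same under each alternative that gave a value (up to 26). The median of the 8 lay between -0.62 and -0.37. The count of genes changed was 3 and became 1 without a low-value filter or with rows as deposited, 9 with median-ratio scaling (6 lower and 3 higher), 17 with quantile normalization (6 lower and 11 higher), 6 with TPM rescaled without mitochondrial genes (4 lower and 2 higher) and 823 with library weights (575 lower and 248 higher), which gave WT replicate 8 a weight of 3.8 and WT replicate 6 one of 0.263. With KO replicate 7 and WT replicates 4 and 7 all left out it was 0, and 0 to 6 with 1 library left out. The count of members called was 0 and became 1, Cfb, with median-ratio scaling, quantile normalization or TPM rescaled without mitochondrial genes, and 4 (C3, Cfb, C3ar1 and C5ar1) with library weights, where 5.59% of all genes were called. With 1 library left out it was 0 to 1, the 1 being Cfb without KO replicate 3. The cause of these shifts was not tested. Leaving out 1 library moved C3 relative to adipocyte markers between -0.24 and 0.16 and relative to progenitor markers between -0.18 and 0.11, so neither has a stable sign.

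Replicate numbers 3 to 7 occur in both groups, but the correlation of same-numbered libraries ran from -0.67 to 0.80, so they were not taken as pairs. With the number as a replicate block over these 10 libraries, 0 genes changed, as in the same 10 libraries without the block (0), C3 relative to adipocyte markers was 0.22 and relative to progenitor markers 0.11, and Cfb had a log2 fold change of -0.69 (limma adjusted p = 0.50). DESeq2 was not run because the table holds no counts. Depth is unknown, and with 2 decimals Vsig4 cannot be resolved near 0. By Dixon's gap rule, which does not see 2 high values together such as those of Vsig4 in WT replicates 7 and 8, no single library stood out in the 16 sets of 7 tested.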
